A study of Mus musculus with 18 samples.

Results

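Differential N6-methyladenosine (m6A) peaks lying in the last exon of a coding transcript were examined in the uterus of early pregnant mice. A peak was taken as a last-exon peak where its annotation named an exon of a RefSeq coding transcript (identifiers starting NM_ or XM_) and that exon was the last of at least 2. Peaks annotated to the 3′UTR were not included, so the last-exon peaks lie almost wholly on coding sequence before the stop codon. They numbered 2290 of the 40929 peaks used, in 1298 host genes. A peak listed as higher in LPS than in Veh is called up with LPS here, and one listed as higher in Mel+LPS than in LPS is called up with melatonin; down is used likewise. There were 835 last-exon peaks up and 237 down with LPS, and 828 up and 390 down with melatonin.

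The animals were ICR female mice, 8 weeks old and labelled WT, and uteri were taken on day 5 of pregnancy. Veh mice received vehicle. LPS mice received vehicle and lipopolysaccharide, a bacterial cell wall component that is sensed by Toll-like receptor 4, at 0.5 mg/kg on 2 days before sampling. Mel+LPS mice received melatonin at 10 mg/kg daily, and the same LPS dose 30 minutes after the melatonin. Each of the 3 treatments had 3 replicates, with an input and an m6A immunoprecipitated library from each, which makes 18 libraries. Both comparisons share the LPS libraries, so their values for the same gene are not independent. The table of peaks down with LPS was used on chromosomes 1 to 9, where it is complete, and every share of up and down peaks in that comparison is restricted to these chromosomes.

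The value given for each peak is the log10 likelihood ratio (LLR) of the authors' comparison, which weighs a difference between the treatments against none. Each peak has a single LLR in a comparison, without values for the replicates. Replicate error is therefore missing throughout, and the depth is unknown. The LLR does not give the size of a change, and no level of RNA or of m6A per sample was analysed, so the labelled tissue could not be checked against marker genes. In whole uterus, fewer cells of a type and less RNA per cell cannot be told apart. Intervals are Wilson 95% binomial intervals and describe the peaks or genes of these tables, not mice.

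m6A is laid down on nascent mRNA by a methyltransferase complex built around METTL3 and METTL14, is removed by FTO and ALKBH5, and is read by proteins of the YTH family that affect mRNA decay and translation. In mammalian mRNA it is concentrated in long internal exons, around the stop codon and in the 3′UTR, most often in a sequence that contains GGAC. Sequence close to exon junctions carries little m6A, because the exon junction complex shields it from the methyltransferase. The last exon has a junction only at its 5′ side and usually holds the end of the coding sequence and the whole 3′UTR.

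GGACT is a common form of the m6A motif. To place it, 5 examples in coding sequence are shown, from the 6 hosts with the highest LLR in each table. GGACT occurred in 23.8% of windows of 200 bases centred on last-exon peaks, and in 18.4% of windows over all coding last exons. Whether it is more frequent in the peaks with the highest LLR was not tested. The stretches are read in the direction of the transcript from GENCODE transcripts on GRCm38, with GGACT in capitals and 12 bases on each side.
Add2: gccctcagcaaaGGACTgggccagatgac
Brinp3: atgctgagccagGGACTctgcaagcctga
Slc26a1: ctacgccaacaaGGACTtcttccttcggt
Prss35: gggcctggccttGGACTacgactacgcgc
Nat8f3: aagctatggtcaGGACTgtcctccaattt

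The stretch of Add2, which encodes the membrane skeleton protein beta-adducin, is on chr6:86118581-86118609, plus strand, and its motif is 183 bases before the stop codon. That of Brinp3 is on chr1:146901218-146901246, plus strand, 882 bases before the stop codon. In Slc26a1, a sulfate anion transporter gene, it is on chr5:108671648-108671676, minus strand, 442 bases before the stop codon. These 3 stretches lie in peaks down with LPS. The stretch of Prss35, a serine protease family gene, is on chr9:86755973-86756001, plus strand, 418 bases before the stop codon, in a peak up with melatonin. That of Nat8f3, an N-acetyltransferase family gene, is on chr6:85761287-85761315, minus strand, 203 bases before the stop codon, in a peak down with melatonin. The motif lay between 7 and 73 bases upstream of the peak centre in all 5. No peak of the 6 highest genes up with LPS held a coding GGACT with full flanks.

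The last-exon peaks leaned to the up side in both comparisons. In LPS vs Veh, 438 of 675 were up, which is 64.9% (61.2 to 68.4), while 49.8% of all listed peaks were up. Internal exons had 44.4% up, first exons 40.6% and the 3′UTR 48.8%, so the interval of the last exons lay above those of the other exons and of the 3′UTR. In Mel+LPS vs LPS, 828 of 1218 were up, which is 68.0% (65.3 to 70.5), against 59.3% of all listed peaks. Here the last exons lay between the internal and first exons, with 80.7% and 82.4% up, and the 3′UTR, with 55.5%. Last exons were thus the exon class with the highest up share in the first comparison and the lowest in the second. No test of these differences was made.

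**Figure D1:**
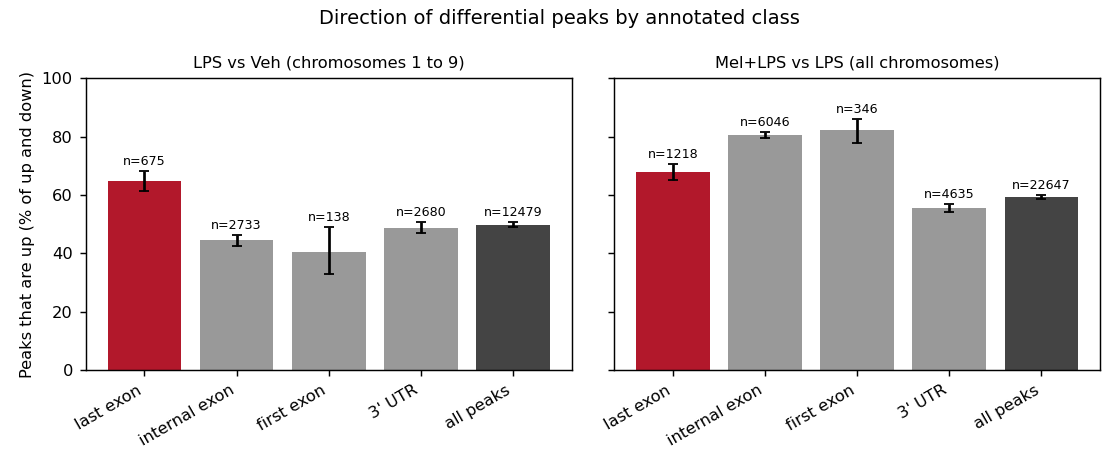
Share of listed peaks that are up, as a percentage of up and down peaks together, for peaks in last, internal and first coding exons, in the 3′UTR and for all listed peaks; bars are shares and whiskers Wilson 95% intervals, with the number of peaks above. Last exons stand at 64.9% in LPS vs Veh and 68.0% in Mel+LPS vs LPS, above all listed peaks in both panels.

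The up share differed with the kind of transcript that the annotation named. In LPS vs Veh, peaks on curated NM_ transcripts were 60.6% up and peaks on predicted XM_ transcripts 70.6% up. In Mel+LPS vs LPS the order was the other way, with 72.1% and 61.4%. The intervals of NM_ and XM_ peaks overlapped slightly in LPS vs Veh and lay apart in Mel+LPS vs LPS. Predicted transcripts made up 39.8% of the last-exon peaks. Peaks in transcripts with 2 exons, 20.6% of the total, were 57.3% up with LPS (48.21 to 65.86) and 74.5% up with melatonin (68.98 to 79.25). With 3 or more exons the shares were 66.5% (62.47 to 70.28) and 66.1% (63.02 to 69.05), so the intervals overlapped in both comparisons. In hosts with over 1000 coding bases in the last exon, the up share was 67.4% in LPS vs Veh and 70.0% in Mel+LPS vs LPS. In hosts with up to 1000 it was 58.5% (51.7 to 65.1) and 67.9% (62.8 to 72.6).

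LLR values in last exons were lower than over all listed peaks. The median was 1.94 for peaks up with LPS, 1.98 for peaks down, 1.99 for peaks up with melatonin and 1.86 for peaks down. Over all listed peaks of the same tables the medians were 2.88, 2.65, 2.17 and 3.09. An LLR of at least 3 was reached by 27.3% of the last-exon peaks up with LPS, against 48.7% of all listed peaks. The same shares were 28.7% against 45.9% for peaks down with LPS, 24.4% against 32.7% for peaks up with melatonin, and 28.2% against 50.8% for peaks down. Peaks in the 3′UTR had medians of 2.01, 2.04, 1.92 and 1.85, close to those of the last exons. An LLR of 10 was reached by 12, 5, 9 and 3 last-exon peaks in the 4 tables, which is 1.44%, 2.11%, 1.09% and 0.769%, against 3.59%, 4.19%, 2.84% and 2.31% of all listed peaks. The median widths were 184, 169, 179 and 163 bases.

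The host genes were those with much coding sequence in the last exon. The median host transcript had 1085 coding bases there, against 159 over 20183 multi-exon coding transcripts of the GENCODE annotation. More than 1000 coding bases were held by 55.4% of the hosts and by 6.68% of all transcripts. Of the transcripts with 100 to 200 coding bases in the last exon, 8 of 6221 held a last-exon peak, which is 0.129%. The share was 3.01% at 200 to 400 bases, 15.5% at 400 to 800 bases, 20.1% at 800 to 1600 bases, 52.1% at 1600 to 3200 bases and 64.2% at 3200 bases or more. Longer exons offer more bases, so the number of peaks was also taken per length. Classes include their lower bound. Part of the rise follows from the rule, since a peak of at least 100 bases must lie clear of the 3′UTR. The number was 0.881 per 100 kb of coding sequence in the shortest class, 12.4 and 34.0 in the next classes, 32.4 at 800 to 1600 bases, and 60.5 and 56.8 in the longest classes.

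**Figure D2:**
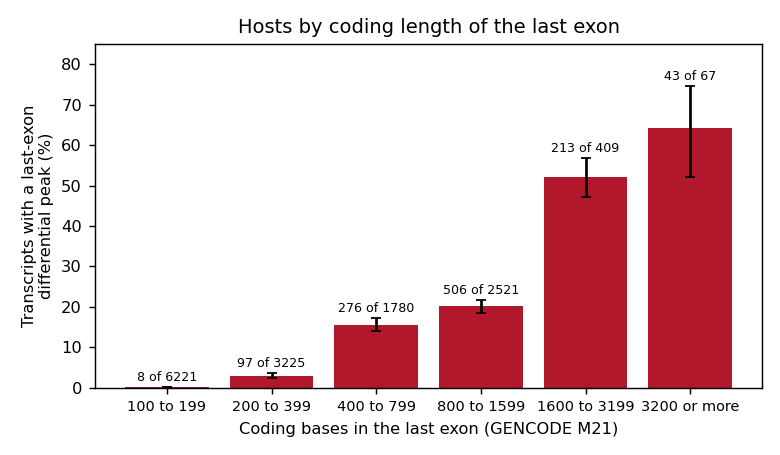
Share of GENCODE transcripts with a last-exon differential peak in any table (percent, vertical axis) by the number of coding bases in the last exon (horizontal axis); whiskers are Wilson 95% intervals and the counts stand above the bars. The share goes from 0.129% in the shortest class to 64.2% in the longest.

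Peaks were placed on 1 coding transcript per gene, and 2122 of the 2290 could be matched. The centre lay in coding sequence in 2020 of them, which is 95.2% (94.2 to 96.0). Of the 2026 with a centre on an exon of that transcript, 99.7% were coding, as the rule all but fixes by leaving out the 3′UTR. For the 2001 with a coding centre in its last exon, the median distance was 594 bases from the last junction and 545 bases to the stop codon. The centre was within 100 bases of the junction in 29 peaks, 1.45%, and at least 400 bases away in 66.2%. Peaks down with melatonin lay nearest the stop codon, with a median of 406 bases, against 591 for peaks up in the same comparison. In LPS vs Veh these medians were 562 bases for peaks up and 522 for peaks down.

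Counted per 1000 coding bases of the host last exons, centres numbered 0.041 in the first 50 bases after the junction, 0.511 in the next 50, and 1.48 at 100 to 150 bases. The highest rate after the junction was 2.37 at 200 to 300 bases, and it declined to 1.06 at 1200 to 1600 bases. Measured back from the stop codon, the rate was 0 in the nearest 50 bases, 1.24 in the next 50 and 2.39 at 150 to 200 bases. It then declined to 0.881 at 1600 to 2400 bases. The gap next to the stop codon follows from the rule, since no peak was narrower than 100 bases and a peak touching the 3′UTR was annotated to it. The low rate in the first 50 bases after the junction was seen in all 4 tables. Peak width has a part in it too, since a peak of at least 100 bases lying wholly within the exon has its centre about 50 bases or more from the junction. For wider peaks this distance is larger, and the median widths were 184, 169, 179 and 163 bases. Width therefore also bears on the rate at 50 to 100 bases and on the 1.45% of centres within 100 bases. Any further part that peak calling has in the low rate was not tested.

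**Figure D3:**
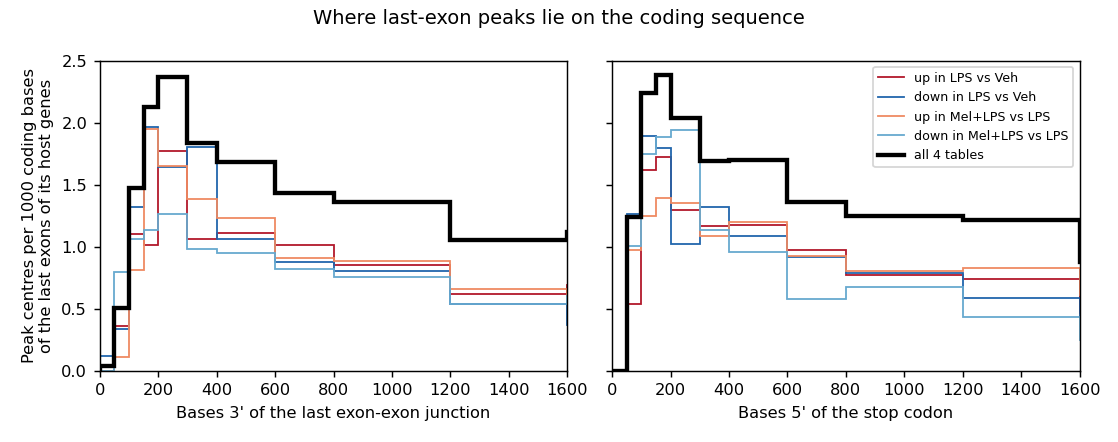
Centres of last-exon peaks per 1000 coding bases of the last exons of the host genes (vertical axis), by distance in bases from the last exon junction (left) and from the stop codon (right); thin lines are the 4 tables, each over its own hosts, and the black line is all tables over all hosts. The black line peaks at 2.37 at 200 to 300 bases after the junction and at 2.39 at 150 to 200 bases before the stop codon.

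The sequence of the peaks was compared with other coding sequence of last exons in windows of 200 bases, reading only the transcript strand. GGAC occurred in 1146 of 1903 windows centred on a peak, 60.2% (58.0 to 62.4), and in 52.4% of 24581 windows tiled over all coding last exons. In windows tiled over the last exons of the hosts alone it was 52.9%. GGACT, which contains GGAC, occurred in 23.8% of the peak windows and in 18.4% of all windows. The GC content was 50.4% in the peak windows and 50.9% in all windows. Over whole peaks, GGAC numbered 4.88, 5.38, 5.33 and 4.57 per 1000 bases for peaks up and down with LPS and up and down with melatonin. With the sequence shifted 100 bases toward the 5′ end it numbered 4.59, 5.43, 5.185 and 4.19, each within the interval of the unshifted value. These values therefore do not place the motif at the peak itself rather than in the sequence near it.

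The motif shares differed between the hosts named Zfp, a large group of zinc finger proteins, and the others. Outside the Zfp genes, GGAC occurred in 66.7% of the peak windows and 54.3% of all windows. Within the Zfp genes these shares were 35.7% and 33.6%, and their intervals overlapped. GAGAAACC, which lies in the repeated linker between zinc fingers and was chosen after the data were seen, occurred in 31.4% of the peak windows of Zfp genes and 33.1% of all their windows. Over whole peaks, whose widths differ between the tables, GGAC was found in 55.3% of peaks up with LPS and 53.8% of peaks down. For the melatonin comparison the shares were 64.2% of peaks up and 52.6% of peaks down. Peaks in internal exons had 64.2% and 50.1%, and those in the 3′UTR 60.6% and 52.9%, so this difference is not particular to last exons.

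Of the 21877 coding genes in the annotation, 5.6% held a last-exon peak in any table. As given above, this share went from 0.129% to 64.2% of transcripts with rising coding length of the last exon. The gene lists here and below were not matched for that length, and its part in their shares was not tested. The Zfp genes held by far the most, with 204 of 394 genes (51.8%) and 420 peaks. Many are transcriptional repressors whose zinc fingers are encoded in 1 long last exon. Their peaks were 67.6% up with LPS and 67.3% up with melatonin, close to the shares over all last exons. The highest were Zfp266 with an LLR of 17.21 (up with melatonin), Zfp658 with 16.02 (up with LPS) and Zfp992 with 14.60 (down with melatonin). Zinc finger genes resemble each other in sequence, so reads may be shared among them and single values are uncertain. Kelch-like and BTB proteins, many of them adaptors of ubiquitin ligases or transcription factors, held peaks in 28 of 108 genes, with 21 peaks up with LPS, 3 down with LPS, 19 up with melatonin and 8 down with melatonin. On chromosomes 1 to 9 alone, 10 were up and 3 were down with LPS, which is 76.9% up against 64.9% of all last-exon peaks there. With melatonin, 70.4% were up against 68.0% of all last-exon peaks. Zbtb6, a zinc finger protein with a BTB domain, had a peak of 8.75 up with LPS and one of 2.74 up with melatonin, 629 and 337 bases before the stop codon. Zbtb21 held 3 weak peaks up with LPS, of 1.33, 1.10 and 1.75, and 1 of 4.55 down with melatonin. Zbtb39 held 3 peaks, all up with melatonin, with LLRs of 1.27, 4.55 and 3.17.

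**Figure D4:**
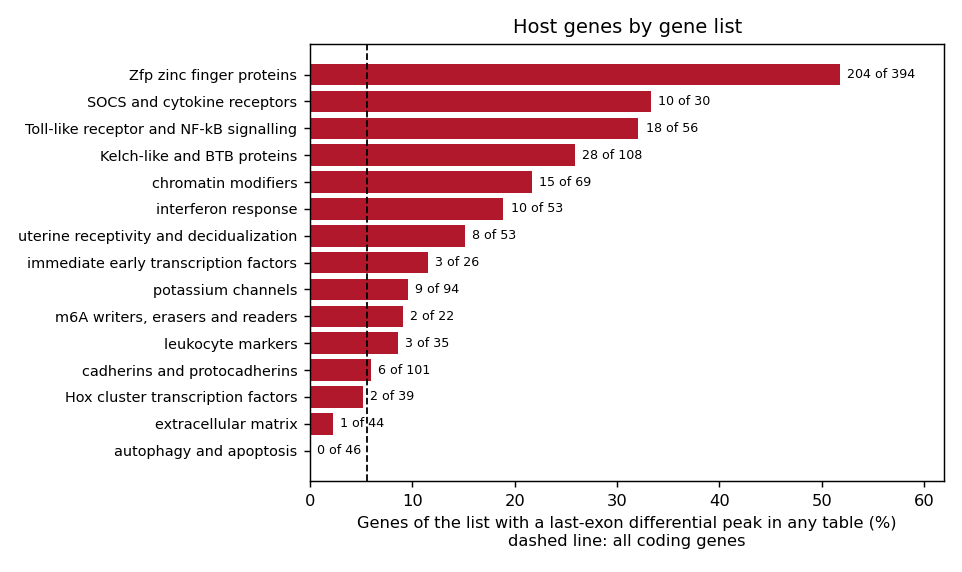
Percentage of the genes of each list with a last-exon differential peak in any table (horizontal axis), with the number of genes beside each bar; the dashed line is the 5.6% of all coding genes. Zfp genes stand at 51.8%, and 0 of 46 autophagy and apoptosis genes held a last-exon peak. The lists were not matched to all coding genes for the length of the last exon.

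Genes of Toll-like receptor and NF-kB signalling held last-exon peaks in 18 of 56 cases (32.1%). Of their peaks, 18 were up and 1 was down with LPS, the up count taken over all chromosomes. On chromosomes 1 to 9 alone, 6 were up and 1 was down, where last-exon peaks as a whole were 64.9% up. In Mel+LPS vs LPS, 11 were up and 8 were down, which is 57.9% up against 68.0% of all last-exon peaks. Toll-like receptors bind microbial molecules, and most of their coding sequence is in 1 exon.

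Tlr4, the receptor for LPS, held a peak up with LPS at chr4:66839896-66840061 with an LLR of 2.20. Another peak of Tlr4, up with melatonin, lay at chr4:66840198-66840308 with an LLR of 1.58, so the last exon had up peaks in both comparisons at different places. Tlr1, which recognises bacterial lipopeptides together with Tlr2, held peaks of 6.02 and 3.22 up with LPS and 2.58 up with melatonin. Tlr6, the other partner of Tlr2, was the sole gene of the list with a peak down with LPS, with an LLR of 9.94, and had a peak of 1.221 down with melatonin.

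Tlr13, a receptor for bacterial ribosomal RNA, held 3 peaks up with LPS with LLRs of 1.96, 3.89 and 1.78. It held 1 peak up with melatonin, of 5.03, and 1 down, of 3.09. Tlr5, the flagellin receptor, had a peak of 8.19 down with melatonin. Il1rap, the shared chain of the interleukin 1 receptor, had the same interval, chr16:26714733-26714844, up with LPS with an LLR of 2.58 and down with melatonin with an LLR of 8.18.

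SOCS proteins and cytokine receptors held peaks in 10 of 30 genes, with 8 peaks up and 0 down with LPS over the chromosomes used for each table, and 7 up and 1 down with melatonin. On chromosomes 1 to 9, 2 were up, where 64.9% of all last-exon peaks were up. The share up with melatonin was 87.5%, against 68.0% of all last-exon peaks. These counts are small, and the differences were not tested. Socs4, a suppressor of cytokine signalling, reached an LLR of 9.03 up with melatonin. Il10ra, a chain of the interleukin 10 receptor, held peaks of 2.05 and 3.26 up with LPS and 1.60 up with melatonin.

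Interferon response genes held peaks in 10 of 53 genes, with 13 peaks up with LPS, none of them on chromosomes 1 to 9, and 2 down on those chromosomes. Of all last-exon peaks on those chromosomes, 64.9% were up with LPS. With melatonin, 4 were up and 9 were down, which is 30.8% up against 68.0% of all last-exon peaks. Many of these lay on alternate scaffolds that repeat the same genes, so their counts and values are uncertain. Ifi47, an interferon-inducible GTPase gene, had 10 peaks, of which 8 were on scaffolds. Over all copies, 4 peaks were up with LPS, 2 were up with melatonin and 4 were down with melatonin. The 4 peaks down with melatonin, with LLRs of 1.54 to 2.52, were all on scaffolds. On chromosome 11 the gene had a peak of 1.61 up with LPS and one of 1.28 up with melatonin. Igtp, of the same GTPase family, held a peak of 3.596 on chromosome 11 up with LPS. Oasl1, a regulator of interferon production, had a peak of 6.95 down with LPS, off the exons of the GENCODE isoform used.

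Chromatin modifiers held peaks in 15 of 69 genes, with 20 peaks up and 0 down with LPS. On chromosomes 1 to 9, where both directions can be counted, these were 9 up and 0 down, while 64.9% of all last-exon peaks were up there. With melatonin, 7 were up and 9 were down, which is 43.8% up against 68.0% of all last-exon peaks. Asxl3, a Polycomb-associated gene, held peaks of 6.40 and 3.63 up with LPS and of 6.17 and 3.71 down with melatonin. Tet3, a methylcytosine dioxygenase gene, had the same interval up with LPS, with an LLR of 1.90, and down with melatonin, with an LLR of 2.42. Tet2, of the same family, held peaks of 1.70 and 2.36 up with LPS and 1.64 down with melatonin. Kat6a, a histone acetyltransferase gene, held peaks of 2.32 and 1.63 up with LPS and 2.10 up with melatonin.

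Genes of uterine receptivity and decidualization held peaks in 8 of 53 genes, with 4 peaks up with LPS over all chromosomes. On chromosomes 1 to 9, 2 were up and 1 was down with LPS, where 64.9% of all last-exon peaks were up. With melatonin, 5 were up and 1 was down, which is 83.3% up against 68.0% of all last-exon peaks. Wnt4, a ligand needed for decidualization, had an LLR of 2.32 down with LPS and of 1.31 up with melatonin. Foxa2, a transcription factor of the uterine glands, had a peak of 2.73 up with LPS. Lif, the cytokine required for implantation, had a peak of 2.41 up with melatonin. Sox17, a transcription factor of the uterine epithelium, had peaks of 1.64 up with LPS and 1.25 down with melatonin. Arid1a had peaks of 1.533 and 2.025 up with melatonin, and Gli1 had one of 1.88 up with LPS.

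Immediate early transcription factors held peaks in 3 of 26 genes. Fos had a peak of 1.42 up with LPS and 4.54 down with melatonin. Egr1 had a peak of 4.18 up with LPS and 1.32 down with melatonin. Csrnp1 had the other pattern, with peaks of 5.08 and 2.79 down with LPS and of 4.28 and 1.64 up with melatonin.

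In the remaining lists, a smaller share of the genes held peaks than in those above, at most 9.57%, beside 5.6% of all coding genes. The m6A writers, erasers and readers held peaks in 2 of 22 genes. Cbll1, a subunit of the methyltransferase complex, had peaks of 3.46 up with LPS and 2.13 up with melatonin. Mettl16, a second m6A methyltransferase gene, had a peak of 1.39 up with LPS. Potassium channels held peaks in 9 of 94 genes, with 6 peaks up and 0 down with LPS (4 and 0 on chromosomes 1 to 9). With melatonin, 4 were up and 4 down. Of all last-exon peaks, 64.9% were up with LPS on chromosomes 1 to 9 and 68.0% with melatonin. Kcnh3 had a peak of 7.65 up with LPS and one of 2.82 down with melatonin over nearly the same stretch. Kcnj2, an inward rectifier gene, had a peak of 7.87 up with melatonin, and Kcnj10, of the same family, had one of 6.29 down with melatonin. Peaks were also held by leukocyte markers in 3 of 35 (8.57%), cadherins and protocadherins in 6 of 101 (5.94%), and Hox genes in 2 of 39 (5.13%). The shares of the cadherins and Hox genes are near the 5.6% of all coding genes. Cd14, the LPS co-receptor of monocytes and macrophages, had a peak of 1.68 up with LPS and peaks of 2.12 and 3.11 up with melatonin. Fcgr1, a high-affinity Fc receptor gene, had peaks of 1.26 up with LPS and 1.96 down with melatonin over nearly the same stretch. Hoxc8 had the same interval at 6.19 up with LPS and 6.29 down with melatonin. Extracellular matrix genes held a peak in 1 of 44, Spp1, the osteopontin gene, at 1.997 down with LPS. Of autophagy and apoptosis genes, 0 of 46 held a last-exon peak in the 4 tables. Of 26 genes measured one by one in the study, 2 held one, Tlr4 and Mettl16. In lists this short, 5.6% is only a few genes, so these counts are not read as a result about the genes.

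The highest LLRs of last-exon peaks lay in genes of varied function. Among peaks up with LPS, Manea, an endomannosidase gene of the Golgi, had the highest with 17.65 at chr4:26327951-26328166, 404 bases before the stop codon. It was followed by Fpr1, the formyl peptide receptor of neutrophils and macrophages, with 16.68, and after Zfp658 by Gpr84, a receptor for medium-chain fatty acids on myeloid cells, with 13.72. Zfp27 had 12.61 and Hivep3 12.50. In Mel+LPS vs LPS, the last exon of Manea had a peak down with 1.92, that of Fpr1 a peak up with 2.98 and that of Hivep3 a peak up with 1.45.

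Prss35 had the highest LLR among the peaks down with LPS, with 17.35 at chr9:86755430-86755699, and also among the peaks up with melatonin, with 17.76 at chr9:86755894-86756113. The stretch with 17.35 also held a peak of 14.30 up with melatonin, at chr9:86755432-86755720, and the stretch with 17.76 overlapped a peak of 9.95 down with LPS, at chr9:86755802-86756031. Prss35 was thus listed down with LPS and up with melatonin at both places, and the LPS libraries are common to these values. Add2 had 12.48 down with LPS and 7.51 up with melatonin, and Brinp3 had 10.94 and 5.65. Brinp3 also had a peak of 2.49 up with LPS elsewhere in the exon. Slc26a1 had 10.24 and Prrt4 10.33, both down with LPS.

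Among peaks up with melatonin, Zfp266 followed Prss35, then Kng1, a kininogen gene, with 16.49 and Gabrp, a GABA receptor subunit gene, with 13.82. Chsy3, a chondroitin synthase gene, had 10.89 and Hbs1l, a ribosome rescue factor gene, 10.75. The peaks of Kng1 and Hbs1l lay off the exons of the GENCODE isoform used. Among peaks down with melatonin, Zfp992 was followed by Nat8f7 with 10.75, Zfp433 with 10.39, Nat8f3 with 9.39, Zbtb26 with 9.19 and Gm5141 with 9.08. Nat8f3 had the same interval up with LPS with an LLR of 7.28. Nat8f genes are near copies of each other, so reads may be shared between them.

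Some hosts held many peaks. After scaffold copies were joined, 705 of 1273 hosts had 1 peak. Ahnak, which encodes a very large scaffold protein of the cell membrane, had 17, of which 5 were up with LPS and 12 were up with melatonin, with LLRs from 1.24 to 7.92. They could not be placed on the Ahnak isoform used for distances. Synm, the intermediate filament protein synemin of muscle cells, had 9 peaks. Its 5 peaks down with LPS had LLRs of 1.28 to 3.68 and its 4 peaks up with melatonin had LLRs of 3.10 to 8.17. Apc, a scaffold protein of Wnt signalling, also had 9 peaks, 3 up with LPS, 5 up with melatonin and 1 down. Zfp469 had 10 peaks and Ahnak2 had 8, most of the latter on a scaffold.

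Up and down peaks of the same comparison occurred in the same host in 47 of 517 hosts in LPS vs Veh and in 74 of 925 hosts in Mel+LPS vs LPS. The 47 were 13.1% of the hosts with an up peak and 22.9% of those with a down peak, and the 74 were 11.5% and 20.8%. The same counts were not made for hosts of other peak classes, so they cannot be read as particular to last exons. The nearest up and down centres were a median of 446 bases apart in LPS vs Veh and 466 in Mel+LPS vs LPS. Zfp658 held 2 peaks up with LPS, of 16.02 and 2.67, and 2 down, of 6.21 and 3.09, on the same exon. In 11 hosts, all 4 tables had a peak, among them Zfp770, Samd9l, a gene of antiviral defence, and Gm13212.

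**Figure D5:**
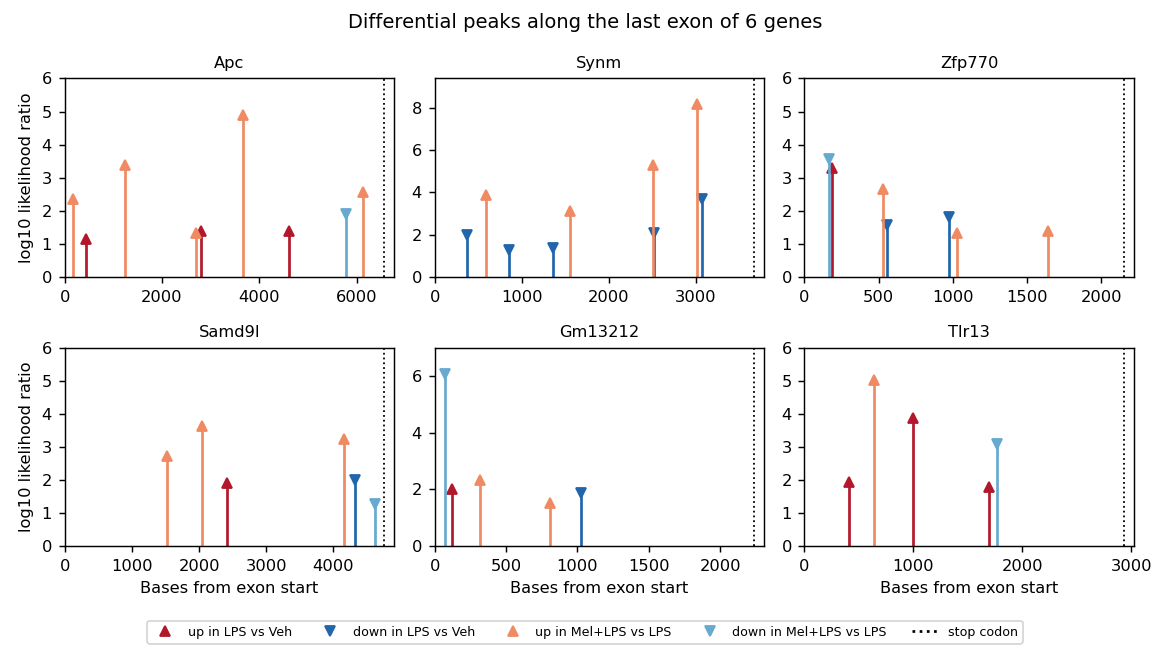
Peak centres along the last exon of the 6 named genes with the most placed peaks, with distance in bases from the start of the exon (horizontal) and LLR (vertical); triangles point up for peaks up and down for peaks down, colours give the table and the dotted line is the stop codon. Synm has 5 peaks down with LPS and 4 up with melatonin along the exon, while Zfp770 has peaks of all 4 tables.

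A host with a last-exon peak also had a 3′UTR peak in the same direction in 22.0% of cases for peaks up with LPS, 21.9% for peaks down, 22.0% for peaks up with melatonin and 21.2% for peaks down. A 3′UTR peak in the opposite direction occurred in 12.3%, 16.4%, 12.1% and 11.2%. For hosts of internal-exon peaks, the same-direction shares were 15.6%, 16.0%, 15.5% and 14.1%, and the opposite ones 8.17%, 7.89%, 8.23% and 8.42%. Both shares were thus higher beside last-exon peaks than beside internal-exon peaks in all 4 tables, and the part that exon length has in this was not tested. The same-direction intervals of these hosts overlapped in LPS vs Veh and lay apart in Mel+LPS vs LPS. The opposite-direction intervals overlapped for peaks up with LPS and for peaks down with melatonin, and lay apart otherwise.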

How the data were processed

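Input and m6A immunoprecipitated RNA of the uterus was sequenced. Per the methods and the submitters' processing notes, Fastp was used by the authors for trimming, STAR 2.5.2a for alignment, exomePeak2 for peak calling, MACS2 3.4 for the comparison of treatments and ChIPseeker 1.22.1 for annotation. HOMER 4.10 is also named there, and its output was not used here. The deposited tables hold 1 score per peak and comparison, the log10 likelihood ratio of the authors, with coordinates of GRCm38 (mm10). How replicates were combined is not given in the sources used here. Without values per replicate or library totals, neither replicate error nor depth could be computed.

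Rows were classified from the annotation column. The LPS vs Veh table of down peaks stops inside a line on chromosome 10, and 4 last-exon peaks on that chromosome were left out. Distances used 1 GENCODE coding transcript (same build) per gene, the principal isoform where one is marked and otherwise the longest coding sequence, matched by gene symbol and chromosome. Scaffold peaks (88) were not placed. The gene that ChIPseeker assigned, by distance to a transcription start, was the host in 57.8% of the last-exon peaks. Motifs were counted on the transcript strand.

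Genes are named by these rules: the 6 hosts with the highest score per table, the 6 with the most peaks, hosts in all 4 tables, up to 6 per gene list, and genes the study measured. The peaks, lists and rules were chosen with earlier results of these data known. No test between samples was possible, and shares have Wilson 95% intervals. Alternatives were a stricter score, 1 peak per host, curated transcripts, 3 or more exons, agreement of host and assigned gene, merging of near peaks, the longest transcript, shifted sequence and another motif. The placement of peaks was tested on simulated data. Software was matplotlib 3.10.9, pandas 2.3.3, scipy 1.17.1 and numpy 2.4.6 under Python 3.11.15.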

Additional observations from a re-analysis of the deposited data

How the results depend on the processing

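No paired analysis was possible because the tables give a peak 1 value in a comparison and no values of replicates, and for the same reason no replicate could be left out. Of 104 alternative values, 68 stayed within the interval or 1.5 times the main value and 36 did not. Some of these outcomes were settled by the alternative itself, since GGACT contains GGAC and a higher LLR cut-off can only lower a count. Merging of near peaks changed no value. These totals are therefore not a measure of robustness.
Last-exon peaks up with LPS numbered 228 with an LLR of at least 3, 475 on NM_ transcripts and 474 where the assigned gene was the host, against 835. The same counts were 68, 152 and 148 for peaks down (237), 202, 542 and 483 for peaks up with melatonin (828) and 110, 210 and 219 for peaks down (390). With an LLR of at least 3, last exons held 3.89%, 2.37%, 4.60% and 2.35% of the peaks of the 4 tables at that LLR, against 6.95%, 3.79%, 6.16% and 4.23%. The median LLR moved to 2.06 (1 peak per host) and 2.08 (assigned gene) for peaks up with LPS, and to 2.08 and 2.09 for peaks up with melatonin. The coding share moved to 97.2% (up with LPS), 100.0% (down) and 96.7% (down with melatonin) on NM_ transcripts, to 91.6% and 89.2% at an LLR of at least 3 for peaks up and down with melatonin, and to 96.8% on the longest transcript for peaks up. GGAC per 1000 bases moved to 4.29 (up with LPS) and 3.41 (down with melatonin) at an LLR of at least 3, and GGACT had 1.35, 1.46, 1.44 and 1.151 in the 4 tables. The up share moved to 60.6% (NM_) in LPS vs Veh, and to 64.7% (LLR of at least 3), 64.5% (1 peak per host) and 72.1% (NM_) in Mel+LPS vs LPS. Each stayed above the share of all listed peaks. Alternatives that left out scaffolds or Zfp genes were chosen after seeing the data and moved no value beyond its interval. The cause of each move was not tested.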
